A study of Homo sapiens with 6 samples.

Results

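The genes of interferons and of their receptor chains were compared between A549 cells that over-expressed CELF6 and control cells. The members were the rows of the deposited gene tables whose symbol is IFNB1, IFNL1, IFNL2 or IFNL3, the 4 interferon genes, or IFNAR1, IFNAR2, IFNGR1, IFNGR2, IFNLR1 or IL10RB, the 6 receptor genes. All 10 were found among the 29889 genes of the tables, and all 10 passed the filter on low counts that left 15847 genes for testing. A549 cells come from an adenocarcinoma of the human lung and grow as an established line, and CELF6 is an RNA-binding protein. One group, CELF6-OE, received the plasmid pIRES-hrGFP-1a carrying CELF6, and the other, Control, received the same plasmid without it. Both went through the same lipid transfection, and polyadenylated RNA was sequenced 48 h later from 3 biological replicates of each group, 6 libraries in all. The expression was transient and in a single cell line. The share of cells that took up plasmid was not given in the sources used here, so fewer cells that transcribe a gene and less RNA per cell cannot be told apart.

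Interferons are secreted proteins, and cells make interferon beta and the interferons lambda after sensing foreign nucleic acid. Interferon beta, the product of IFNB1, is a type I interferon and binds a receptor built from IFNAR1 and IFNAR2, whereas the interferons lambda, the products of IFNL1, IFNL2 and IFNL3, are type III and bind IFNLR1 paired with IL10RB. Interferon gamma binds IFNGR1 paired with IFNGR2. The bound receptors signal through Janus kinases and STAT proteins, and type III interferons act mostly on epithelial cells such as those that line the airways. Transcription of IFNB1 and of the lambda genes is switched on by interferon regulatory factors (IRF) and NF-kB, which bind just upstream of the start site.

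The 250 bases upstream of the transcription start of IFNB1, IFNL1 and IFNL2 are shown because the interferon genes are switched on through this stretch. Its part in their fold changes was not tested. They are RefSeq sequences on GRCh38.p14, written 5' to 3' along the strand of the gene. The windows are chr9:21077943-21078192 on the minus strand for IFNB1, chr19:39296157-39296406 on the plus strand for IFNL1 and chr19:39268146-39268395 on the plus strand for IFNL2. Capitals mark matches to AANNGAAA, the core that IRF proteins recognise, on either strand, and to the NF-kB consensus on either strand.

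IFNB1: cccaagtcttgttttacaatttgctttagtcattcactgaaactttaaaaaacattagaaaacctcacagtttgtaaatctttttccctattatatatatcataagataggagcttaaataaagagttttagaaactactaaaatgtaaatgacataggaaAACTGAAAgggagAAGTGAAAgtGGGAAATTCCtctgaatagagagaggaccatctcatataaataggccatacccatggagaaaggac

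IFNL1: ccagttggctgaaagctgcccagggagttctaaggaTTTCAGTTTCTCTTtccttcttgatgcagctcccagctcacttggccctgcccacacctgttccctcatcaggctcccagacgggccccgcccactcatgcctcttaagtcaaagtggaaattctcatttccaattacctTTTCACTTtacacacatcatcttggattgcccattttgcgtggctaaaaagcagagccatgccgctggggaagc

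IFNL2: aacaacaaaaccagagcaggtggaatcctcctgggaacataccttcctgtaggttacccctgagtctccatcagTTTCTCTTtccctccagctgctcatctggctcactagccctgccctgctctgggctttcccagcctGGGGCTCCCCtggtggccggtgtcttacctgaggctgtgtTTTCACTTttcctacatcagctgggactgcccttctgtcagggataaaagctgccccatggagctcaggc

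IFNB1 had IRF core matches at 89 to 82 and at 76 to 69 bases before the start, followed by an NF-kB match at 66 to 57. IFNL1 had IRF core matches at 214 to 207, 208 to 201 and 74 to 67 bases before the start, all on the opposite strand, of which the first and second overlap, and it had 0 NF-kB matches in this window. IFNL2 had IRF core matches at 176 to 169 and at 70 to 63, also on the opposite strand, and an NF-kB match at 110 to 101. The window of the first listed start of IFNL3 differed from that of IFNL2 at 1 of 250 bases and held the same matches. The window of a second listed start of IFNL3 held 0 IRF core and 0 NF-kB matches. The window before the first listed start of each of the 4 interferon genes held at least 2 IRF core matches, as did 4.71% of the windows of 27305 genes in RefSeq, and 20.6% of those held at least 1. RefSeq windows were found for 9 of the 10 members, and IFNAR2 was the other member. The 7 windows of the other 5 receptor genes held 0 IRF core matches and 1 NF-kB match, at IFNGR2, against 5.05% of all windows with an NF-kB match. A match to TTCNNNGAA, the element that STAT dimers recognise, was found at IFNB1 and at IFNLR1, against 6.78% of all windows. These matches describe letters in a window and were not tested as binding sites.

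The total count on genes ranged from 33748328 to 35413404 in CELF6-OE and from 36422617 to 37920700 in Control, and the 3 CELF6-OE libraries held fewer counts each than the Control libraries. CELF6 had 18646, 20789 and 11571 counts in CELF6-OE replicates 1 to 3 and 0 counts in each Control library, as the labels state. Of 7 markers of epithelium and of A549, all were detected, with KRT7 at 101203 counts or more per library. KRT8, KRT18 and CDH1 of these were called lower in CELF6-OE, at an adjusted p under 0.05 as everywhere here, and 0 were called higher. Over all tested genes, 11.5% were called lower and 6.47% higher. The summed counts of the 7 markers, not scaled for depth, were 484700 to 550940 in the CELF6-OE libraries against 624103 to 684692 in the Control libraries. Of 7 leukocyte markers, 4 were in the tables, and PTPRC and MS4A1 had at most 2 counts in any library. The summed counts, again not scaled for depth, were 288 to 372 in the CELF6-OE libraries against 324 to 380 in the Control libraries. CD14 and ITGAM made up nearly all of that sum, and ITGAM was called lower. The part of these markers in the results that follow was not tested.

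The 4 interferon genes fell by similar factors in CELF6-OE, to between 11.3% and 12.0% of the Control mean in FPKM, which is the number of fragments scaled by transcript length and by the mapped fragments of the library. IFNB1 had 11, 36 and 22 counts in the CELF6-OE libraries against 206, 231 and 180 in the Control libraries. Its FPKM was 0.35, 1.13 and 0.73 in CELF6-OE and 6.33, 6.82 and 5.31 in Control, or 0.737 ± 0.390 against 6.15 ± 0.770 (SD, n = 3 each). The groups lay far apart, with the highest CELF6-OE library well under the lowest Control library. The mean was 8.35-fold lower, and the fitted log2 fold change was -3.08 (standard error [SE] 0.26, 95% interval -3.66 to -2.50). The adjusted p of IFNB1, 3.16e-05, and every other adjusted p for which no other test is named came from the quasi-likelihood test of edgeR over all 15847 genes, adjusted by the Benjamini-Hochberg method. Where a library was left out, the same test was run over the genes that then passed the filter.

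The 3 CELF6-OE libraries differed in IFNB1 by more than counting error. The counts of 11 and 36 have exact Poisson 95% intervals of 5.49 to 19.7 and 25.2 to 49.8, which do not overlap and cover counting error only. The coefficient of variation of IFNB1 in depth-scaled counts was 52.1% in CELF6-OE, where counting alone would give 20.9%, and 11.5% in Control, where counting alone would give 6.97%.

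IFNL1 had 59, 70 and 68 counts in the CELF6-OE libraries against 558, 609 and 705 in the Control libraries. Its FPKM was 1.90, 2.20 and 2.25 against 17.2, 18.0 and 20.9, with means of 2.12 ± 0.189 and 18.7 ± 1.92 (SD, n = 3 each). It was the steadiest of the 4 in CELF6-OE, where its coefficient of variation of 8.37% was within the 12.3% that counting alone would give. The log2 fold change of IFNL1 was -3.17 (SE 0.14, adjusted p = 3.81e-07).

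IFNL2 had 34, 59 and 65 counts in the CELF6-OE libraries against 427, 491 and 529 in the Control libraries, which gave a log2 fold change of -3.12 (SE 0.19, adjusted p = 5.13e-06). IFNL3 had 27, 45 and 87 counts in the CELF6-OE libraries against 397, 537 and 553 in the Control libraries, which gave a log2 fold change of -3.15 (SE 0.29, adjusted p = 4.46e-05). The groups were separate for both genes, and CELF6-OE replicate 1 was the lowest library and replicate 3 the highest. Mean FPKM was 1.98 ± 0.635 against 16.8 ± 1.46 for IFNL2 and 1.91 ± 1.16 against 16.5 ± 2.52 for IFNL3 (SD, n = 3 each).

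IFNL2 and IFNL3 are near-identical copies, and how the authors' counting divided their reads is uncertain. Their reference transcripts were identical at 98.0% of 951 aligned bases, and 40 of the 801 stretches of 1 read length in IFNL2 also occur in IFNL3. IFNL1 was 78.0% identical to IFNL2 and 77.2% to IFNL3 and shared 0 such stretches. With the counts of IFNL2 and IFNL3 added into a single feature the log2 fold change was -3.14 (SE 0.23, adjusted p = 1.23e-05), which leaves out the division of reads between the copies. IFNL2 took 55.7%, 56.7% and 42.8% of the joint total in the CELF6-OE libraries against 51.8%, 47.8% and 48.9% in the Control libraries, and the groups overlapped.

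The receptor genes had smaller fold changes than the interferon genes, and IFNAR1 was the one receptor gene with a fitted log2 fold change above 0. The type I chain IFNAR1 had 878, 959 and 916 counts in the CELF6-OE libraries against 915, 984 and 799 in the Control libraries. Its FPKM was 3.94, 4.22 and 4.23 against 3.93, 4.07 and 3.3. The groups overlapped, and the log2 fold change of 0.10 (SE 0.085) had a 95% interval that runs from 94.4% to 122% of Control, with an adjusted p of 0.430. IFNAR2, the chain that holds the signal-bearing tail for STAT binding, had 761, 847 and 778 counts in the CELF6-OE libraries against 969, 1024 and 1047 in the Control libraries. Its FPKM fell from 5.98 ± 0.115 to 5.04 ± 0.216 (SD, n = 3 each), which gave a log2 fold change of -0.28 (SE 0.075, adjusted p = 0.0270). The groups of IFNAR2 were separate, but its adjusted p was 0.0705 to 0.124 without any 1 of CELF6-OE replicate 1, 2 or 3 or Control replicate 2.

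IFNGR1, the ligand-binding chain of the interferon gamma receptor, fell most among the receptor genes. Its FPKM was 24.96, 23.5 and 26.8 in CELF6-OE and 42.3, 37.1 and 31.7 in Control, or 67.7% of the Control mean. The groups were separate, and the Control libraries were spread more widely than the CELF6-OE libraries. The counts were 1938, 1860 and 2022 against 3426, 3129 and 2678, which gave a log2 fold change of -0.59 (SE 0.089, adjusted p = 0.00115). IFNGR2, its partner chain, had 1512, 1500 and 1463 counts in the CELF6-OE libraries against 1809, 2020 and 1925 in the Control libraries, which gave a log2 fold change of -0.29 (SE 0.068, adjusted p = 0.0143). The adjusted p of IFNGR2 was 0.0562, 0.0753 and 0.106 without CELF6-OE replicate 1, CELF6-OE replicate 2 or Control replicate 2.

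IL10RB, the chain that the lambda receptor shares with receptors of the interleukin 10 family, had 662, 689 and 693 counts in the CELF6-OE libraries against 883, 968 and 996 in the Control libraries. Its FPKM fell from 12.4 ± 0.502 to 9.59 ± 0.369 (SD, n = 3 each), which gave a log2 fold change of -0.40 (SE 0.081, adjusted p = 0.00618). IFNLR1, the chain that gives the lambda receptor its specificity, was sparse, with 82, 69 and 77 counts in the CELF6-OE libraries against 110, 97 and 106 in the Control libraries. All 3 CELF6-OE libraries lay below the Control libraries, but the log2 fold change of -0.38 (SE 0.15) did not pass the threshold, with an adjusted p of 0.109 and a 95% interval from 60.7% to 96.9% of Control. For IFNAR1 the two-sided exact permutation test on FPKM gave p = 0.2, and for each of the other 9 members it gave p = 0.1, the lowest value that 3 against 3 can reach. A p of 0.1 here states only that the groups did not overlap. The share of all tested genes with such separate groups was not computed, so the number of members is not read as a result.

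**Figure D1:**
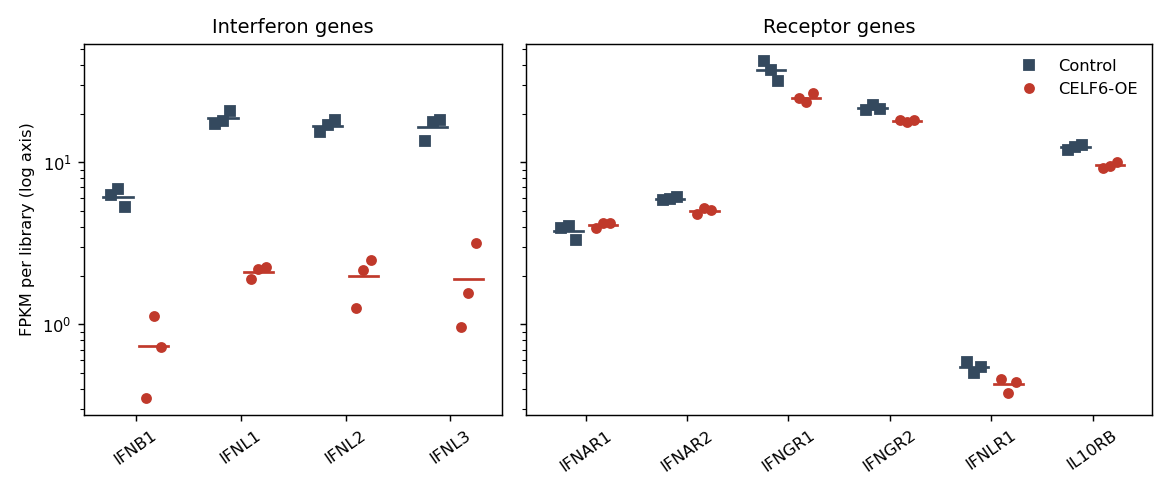
FPKM on a log axis in each library for the 4 interferon genes (left) and the 6 receptor genes (right). Squares are Control, circles are CELF6-OE, and the short lines are group means. The IFNL1 circles lie at 1.90 to 2.25, under squares at 17.2 to 20.9, while the symbols of IFNAR1 overlap.

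At an adjusted p under 0.05, 4 of the 4 interferon genes and 4 of the 6 receptor genes were called lower and 0 of the 10 were called higher, where 11.5% of all tested genes were called lower and 6.47% higher. By the DEG rule of the methods, p under 0.01 with a change of 1.5-fold or more, all 4 interferon genes and 1 receptor gene, IFNGR1, were down-regulated and 0 were up-regulated, where 5.91% of all tested genes were down-regulated and 1.36% up-regulated. IFNGR1 lay at the edge of the fold threshold and did not reach it with library size alone or upper quartile scaling, on the FPKM scale, or without CELF6-OE replicate 2, Control replicate 1 or Control replicate 2. The median log2 fold change was -3.13 over the interferon genes, with a range of -3.17 to -3.08, and -0.34 over the receptor genes, with a range of -0.59 to 0.10. Over all tested genes the median was 0.011 and 48.4% were below 0. Counted from the lowest fold change of the 15847 genes, IFNL1, IFNL3, IFNL2 and IFNB1 stood at places 30, 31, 35 and 38. A log2 fold change of -3 or lower was found for 41 tested genes, or 0.259%.

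**Figure D2:**
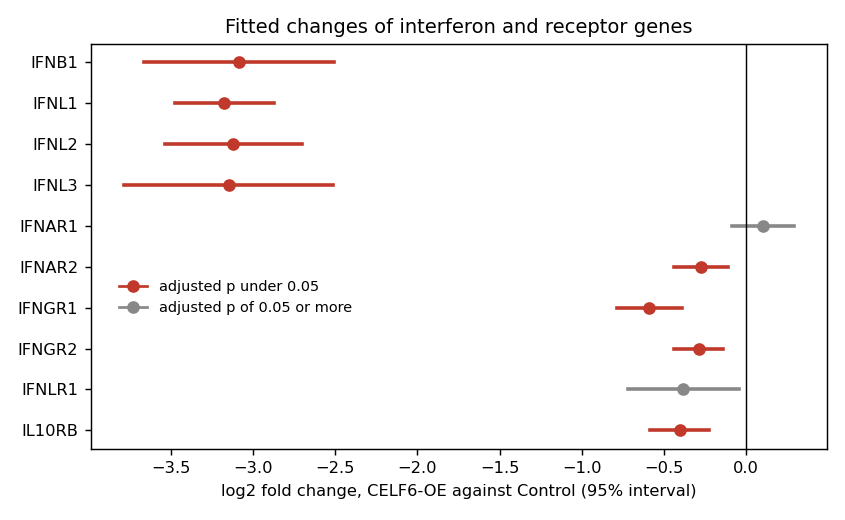
Fitted log2 fold change of each member, CELF6-OE against Control, with its 95% interval from edgeR. Red marks an adjusted p under 0.05 and grey the others, which are IFNAR1 at 0.10 and IFNLR1 at -0.38. The interferon genes cluster near -3.13 and the receptor genes lie between -0.59 and 0.10.

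**Figure D3:**
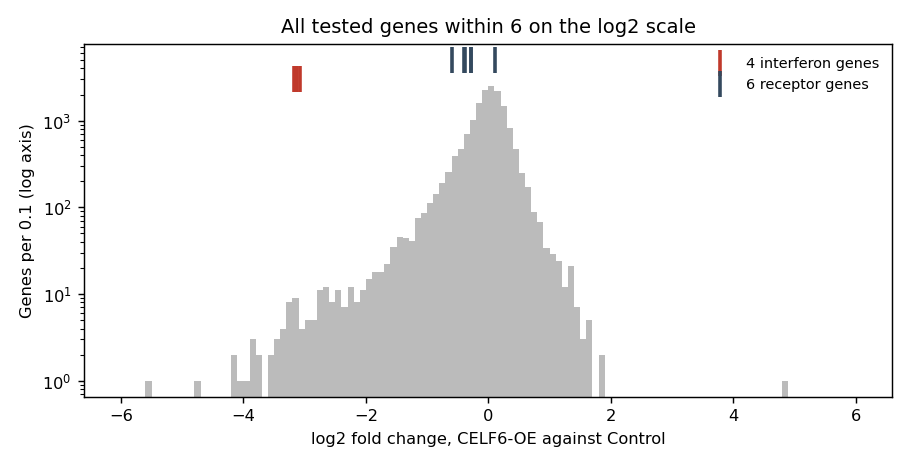
Histogram of log2 fold changes of all tested genes within 6 of 0, in steps of 0.1 on a log axis of gene number, with ticks for the 4 interferon genes (red) and the 6 receptor genes (blue-grey). The interferon genes stand in the far lower tail, where 41 of 15847 genes lie at -3 or below, and the receptor genes stand near the bulk. CELF6 at 17.08 is outside the range drawn.

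FPKM values take account of transcript length, so levels of different genes can be set side by side on this scale. The summed FPKM of the 4 interferon genes was 4.48, 7.06 and 8.68 in CELF6-OE and 52.4, 59.4 and 62.6 in Control, with means of 6.74 ± 2.12 and 58.1 ± 5.20 (SD, n = 3 each). The summed FPKM of the 6 receptor genes was 61.8, 60.6 and 64.7 in CELF6-OE and 85.5, 82.7 and 76.0 in Control. The ratio of these sums, interferon genes over receptor genes, was 0.0725, 0.117 and 0.134 in CELF6-OE and 0.613, 0.719 and 0.823 in Control, and the groups were separate for both sums and for the ratio. CELF6-OE replicate 3, which had the fewest CELF6 counts, had the highest summed interferon FPKM of its group. CELF6-OE replicate 2, which had the most CELF6 counts, did not have the lowest sum, with 7.06 against 4.48 in replicate 1. No relation was tested with 3 libraries.

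In Control the order of FPKM was IFNGR1, IFNGR2, IFNL1, IFNL2, IFNL3, IL10RB, IFNB1, IFNAR2, IFNAR1 and IFNLR1. The libraries of IFNL1 and IFNL2, of IFNL2 and IFNL3, and of IFNB1 and IFNAR2 overlapped, and the other neighbours in this order did not. In CELF6-OE the order was IFNGR1, IFNGR2, IL10RB, IFNAR2, IFNAR1, IFNL1, IFNL2, IFNL3, IFNB1 and IFNLR1. There, from IFNL1 downward, each gene overlapped with the next. Among genes further apart in this order, the libraries of IFNL1 and IFNL2 all lay above those of IFNB1, and the libraries of IFNL1, IFNL2 and IFNL3 all lay above those of IFNLR1.

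The make-up of the interferon transcripts did not separate the groups. IFNB1 took 10.7% ± 4.57 of the summed interferon FPKM in CELF6-OE and 10.7% ± 1.93 in Control, and IFNL1 took 33.2% ± 8.42 and 32.1% ± 1.61 (SD, n = 3 each). The libraries overlapped between groups for the share of each of the 4 genes. Within the receptor genes, IFNAR1 took 6.63% ± 0.305 of the summed FPKM in CELF6-OE and 4.62% ± 0.291 in Control, and IFNGR1 took 40.2% ± 1.37 and 45.4% ± 3.87 (SD, n = 3 each). The groups were separate for these 2 shares and overlapped for the other 4 receptor genes.

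The partner chains of each receptor were compared by the ratio of their counts, in which transcript length cancels between groups. The count of IFNAR1 over that of IFNAR2 was 1.15, 1.13 and 1.18 in CELF6-OE and 0.944, 0.961 and 0.763 in Control, which differed by 0.38 in the mean log2 ratio. The count of IFNGR1 over that of IFNGR2 was 1.28, 1.24 and 1.38 in CELF6-OE and 1.89, 1.55 and 1.39 in Control, and the mean log2 ratio differed by -0.30. The groups did not overlap for either ratio, although for the interferon gamma receptor CELF6-OE replicate 3 and Control replicate 3 nearly met. The two-sided exact permutation p was 0.1 for both, the smallest possible, and 0.15 after Benjamini-Hochberg adjustment over the 3 receptors. The log2 ratio of IFNLR1 to IL10RB was -3.17 ± 0.15 in CELF6-OE and -3.19 ± 0.16 in Control (SD, n = 3 each), and the libraries overlapped (exact permutation p = 1.0).

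**Figure D4:**
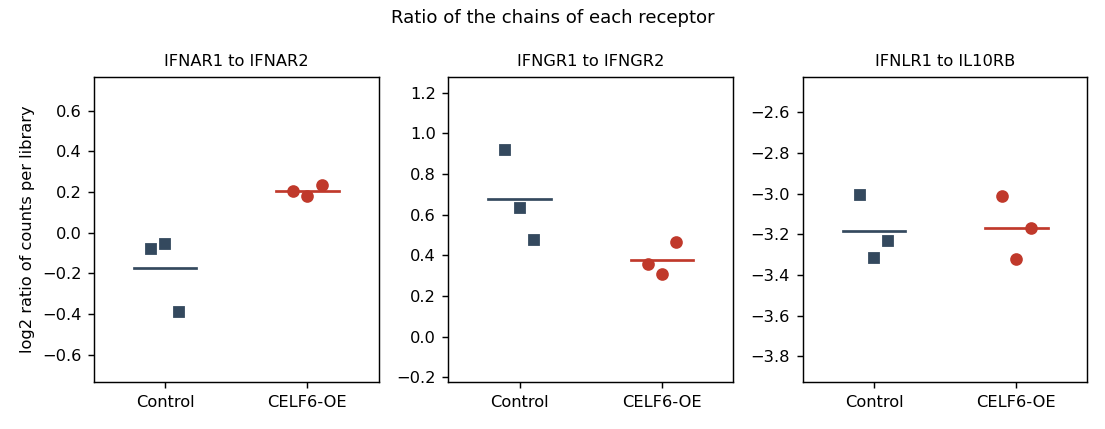
Log2 ratio of the counts of the partner chains of each receptor in each library, with Control and CELF6-OE side by side and group means as lines. The type I ratio is higher in CELF6-OE (mean 0.21 against -0.18), the interferon gamma ratio is lower (0.38 against 0.68), and the lambda ratio overlaps between groups.

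On GRCh38, IFNB1 (ENSG00000171855) lies at chr9:21077104-21077942 on the minus strand. The 3 lambda genes lie within 55.2 kb of chromosome 19, with IFNL3 (ENSG00000197110) at chr19:39243455-39245250, IFNL2 (ENSG00000183709) at chr19:39268396-39270188 and IFNL1 (ENSG00000182393) at chr19:39296407-39298673. Between IFNL3 and IFNL2 lies IFNL4, another lambda interferon gene that is no member, with 4, 0 and 2 counts in the CELF6-OE libraries against 24, 61 and 36 in the Control libraries. Its log2 fold change was -4.18 (SE 0.61, adjusted p = 0.000891). IFNL4 passed the filter on low counts only through the Control libraries, where it was higher. Its call therefore adds no support to the calls of the members. Among the receptor genes, 4 lie within 274 kb of chromosome 21, all on the plus strand, with IFNAR2 (ENSG00000159110) at chr21:33205282-33265675, IL10RB (ENSG00000243646) at chr21:33266367-33311420, IFNAR1 (ENSG00000142166) at chr21:33324387-33359864 and IFNGR2 (ENSG00000159128) at chr21:33403413-33479348. IFNGR1 (ENSG00000027697) lies at chr6:137197483-137219449 and IFNLR1 (ENSG00000185436) at chr1:24154168-24187959, both on the minus strand.

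Neighbours on chromosome 21 share sequence with the receptor genes. A read-through gene, IFNAR2-IL10RB, listed as AP000295.9, had 104, 136 and 145 counts in the CELF6-OE libraries against 162, 207 and 173 in the Control libraries, which gave a log2 fold change of -0.42 (SE 0.16, adjusted p = 0.0894). It overlaps 14.7% of the exonic bases of IFNAR2 and 21.6% of those of IL10RB. Of its own exonic bases, 95.6% are shared with IFNAR2 or IL10RB, so the division of reads between these genes is uncertain. TMEM50B, on the opposite strand to IFNGR2, overlaps 15.0% of the exonic bases of IFNGR2. Its log2 fold change was -0.11 (adjusted p = 0.486), and the strand setting of the counting was not given in the sources used here. IL10RB-AS1, upstream of IL10RB on the opposite strand, had at most 11 counts in any library and was not tested. IFNAR1, which lies between IL10RB and IFNGR2, was the receptor gene of this span that was not called.

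Related genes were read from lists written with earlier results of these data known. Among 18 other interferon genes, 9 were in the tables and 2 passed the filter, IFNL4 and IFNE. IFNE, an interferon of epithelia, had 15, 17 and 24 counts in the CELF6-OE libraries against 16, 12 and 10 in the Control libraries, which gave a log2 fold change of 0.63 and an adjusted p of 0.211. The 7 IFNA genes in the tables had at most 7 counts in any library. By mean FPKM, IFNE stood at 0.350 in CELF6-OE and 0.223 in Control, where IFNB1 stood at 0.737 and 6.15.

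Receptor genes of the same class II cytokine receptor family that do not serve interferons were read next. Of 6 such genes 4 were tested, 3 were called lower and 0 higher, with a median log2 fold change of -0.94. Over all tested genes, 11.5% were called lower and 6.47% higher. IL22RA1, a chain of the interleukin 22 receptor that pairs with IL10RB, had 290, 270 and 376 counts in the CELF6-OE libraries against 636, 678 and 595 in the Control libraries, which gave a log2 fold change of -0.95 (SE 0.13, adjusted p = 0.000648). IL20RB, a chain of the interleukin 20 receptor, fell by 0.93 on the log2 scale (adjusted p = 0.00167), and IL20RA, which had at most 24 counts per library, fell by 1.54. IL20RA passed the filter on low counts only through the Control libraries, where it was higher. F3, which encodes tissue factor, had a log2 fold change of -0.089 and an adjusted p of 0.820. IL20RA lost its call in DESeq2, with log2(FPKM + 1) and without CELF6-OE replicate 1, CELF6-OE replicate 2 or Control replicate 2, with an adjusted p of at most 0.0834. Whether these genes differed from the interferon receptor genes was not tested.

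Of 10 genes that act directly at the receptors or just below them, 9 were tested, 5 were called lower and 1 higher, with a median of -0.55. Among all tested genes the shares were 11.5% lower and 6.47% higher. The kinases bound to the receptors were not called, with log2 fold changes of 0.085 for JAK1 (adjusted p = 0.387), -0.49 for JAK2 (adjusted p = 0.136) and -0.21 for TYK2 (adjusted p = 0.0831). STAT2, the partner in the transcription factor formed after type I and type III signalling, fell by 1.01 (SE 0.14, adjusted p = 0.000686). Inhibitors of the pathway were also called lower. USP18, which binds IFNAR2 and blocks signalling, had a log2 fold change of -1.02, SOCS1 of -0.99, SOCS3 of -0.55 and the phosphatase gene PTPN6 of -0.56, with adjusted p between 0.000285 and 0.00196. PTPN11, the gene of a related phosphatase, rose by 0.43 on the log2 scale (SE 0.092, adjusted p = 0.00877), and its adjusted p was 0.0503 without CELF6-OE replicate 2. IRF9 had at most 2 counts in any library, and the gene ENSG00000259529, which overlaps 23.9% of its exonic bases on chromosome 14, held 3116 to 3203 counts in the CELF6-OE libraries against 3793 to 3994 in the Control libraries. How reads were divided between these 2 genes was not tested.

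Of 17 genes that lead to the transcription of interferon genes, all were tested, 8 were called lower and 0 higher, with a median of -0.27. Among all tested genes the shares were 11.5% lower and 6.47% higher. The sensors of RNA were among those that fell. Whether they fell before or after the interferon genes was not tested, since all libraries were taken at 48 h. RIGI, listed as DDX58, had a log2 fold change of -1.09, IFIH1 of -1.27, DHX58 of -2.45 and the endosomal receptor gene TLR3 of -1.63, with adjusted p between 1.3e-05 and 0.000382. STING1, listed as TMEM173, encodes the adaptor for sensing of DNA in the cytosol. It had 10, 9 and 16 counts in the CELF6-OE libraries against 86, 94 and 106 in the Control libraries. Its log2 fold change was -2.94 (SE 0.25, adjusted p = 2.96e-05). The CELF6-OE libraries alone would not have kept STING1, which passed the filter on low counts through the Control libraries, where it was higher. Its call therefore adds no support to the calls of the members. Of the transcription factor genes, IRF1 had a log2 fold change of -1.09 and IRF7 of -0.88, and the kinase gene IKBKE fell by 0.34 (adjusted p = 0.0240). IRF3, the factor that acts first at IFNB1, had a log2 fold change of -0.15 (adjusted p = 0.218), the kinase gene TBK1 of -0.046 (adjusted p = 0.833) and the adaptor gene MAVS of 0.18 (adjusted p = 0.0559). IKBKE lost its call without CELF6-OE replicate 1, CELF6-OE replicate 2 or Control replicate 2, with an adjusted p of at most 0.106.

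**Figure D5:**
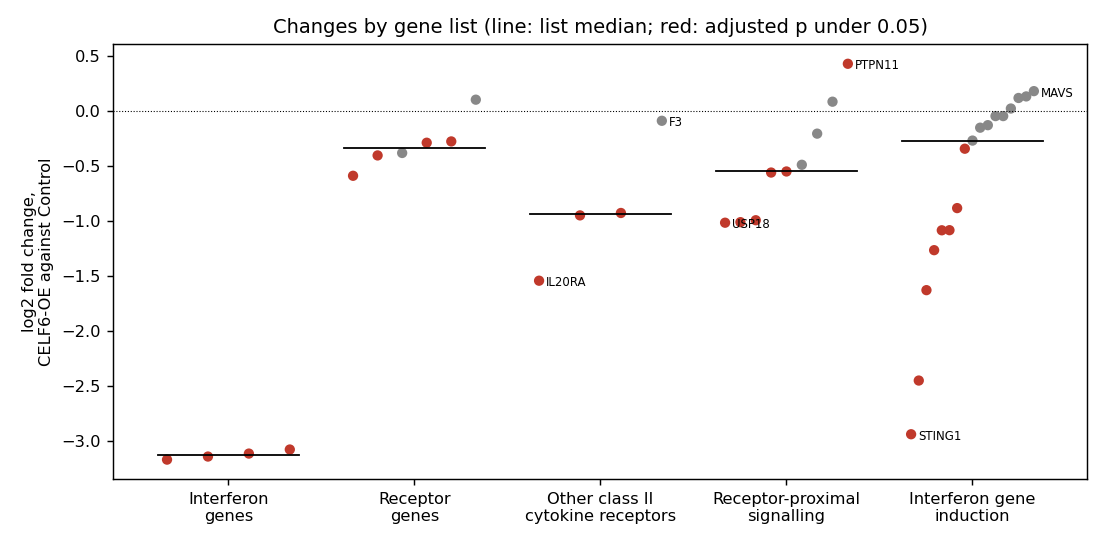
Fitted log2 fold change of each tested gene, CELF6-OE against Control, in 5 gene lists. Points in red had an adjusted p under 0.05, lines are list medians, and the lowest and highest gene of the 3 related lists are named. The medians are -3.13, -0.34, -0.94, -0.55 and -0.27 from left to right. STING1 at -2.94 is the gene nearest to the interferon genes, and it passed the filter on low counts only through the Control libraries.

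The genes whose level followed the interferon genes most closely were found by Pearson's r of log2 depth-scaled counts over the 6 libraries, among 12640 genes with a mean of at least 50 counts. The mean of IFNB1 and IFNL1, which have no near-identical copy, was matched most closely by CTSL (r = 0.9987), the gene of a lysosomal protease, RWDD2B (r = 0.9985) and PI3 (r = 0.9974), the gene of a protease inhibitor, followed by MAN2B2 and ETV7. Their own log2 fold changes ranged from -2.58 for ETV7 to -0.47 for RWDD2B. The mean of the 6 receptor genes was matched most closely by HK1 (r = 0.9985), the gene of a hexokinase, followed by HRASLS2, RASGRP3, VTN and ACSL5 (r = 0.9974 or more). The libraries fall into the 2 groups, so r mostly reflects the difference between groups and is given without a p.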

How the data were processed

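Per the labels and the methods, RNA of 3 CELF6-OE and 3 Control cultures was sequenced. The authors trimmed the reads, placed them on GRCh38 using TopHat2 and kept counts of uniquely placed reads per gene. The deposited counts are whole numbers without normalization. The deposited FPKM values were computed by the authors from the same reads. The counter, whether it used strand, and the release of the annotation are not given in the sources used here.

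Counts were scaled by TMM, filtered with filterByExpr (minimum count 10) and tested with the quasi-likelihood test of edgeR 4.0.16 (R 4.3.3) on all 15847 genes, with a prior count of 0.125 and Benjamini-Hochberg adjustment. The biological coefficient of variation was 8.62%. FPKM served for levels and exact permutation tests. DESeq2 1.42.0 and limma 3.58.1, other scalings and filters, and leaving out each library were alternatives. The procedure was tested on simulated counts. No replicate was a copy of another. Positions come from GENCODE on GRCh38, in which 97.1% of the gene identifiers were found.

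The named genes were the 10 members, 4 related lists, genes of the chromosome 21 span, the 5 genes most like each group by correlation, CELF6 and cell markers. From the signalling and induction lists, the called genes and up to 3 not called were named. Neighbours on chromosomes 19 and 14 were added after their values were seen. The members and lists were chosen with earlier results of these data known. A gene of the signalling list and a cell marker are not reported here.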

Additional observations from a re-analysis of the deposited data

How the results depend on the processing

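All 4 interferon genes, IFNGR1 and IL10RB were called lower under each of the 19 alternatives, and IFNAR1 and IFNLR1 under none of the 19. The largest adjusted p of an interferon gene was 0.00101 (IFNL3, with log2(FPKM + 0.1) in limma). IFNGR2 was called in 16 and IFNAR2 in 12 of 19. Besides the libraries named with the results, IFNAR2 was lost with log2(FPKM + 0.1) and log2(FPKM + 1) in limma (adjusted p = 0.0506 and 0.0558). Leaving out 1 library at a time, the receptor genes called lower ranged from 2 to 4, those down-regulated by the DEG rule from 0 to 1, all genes called lower from 1032 to 2370 and higher from 281 to 1906 (1032 without Control replicate 2, 281 without CELF6-OE replicate 2, 1906 without Control replicate 1), and all genes by the DEG rule from 791 to 1041 lower and 155 to 348 higher. The median of the interferon genes then ranged from -3.27 to -2.86, that of the receptor genes from -0.36 to -0.30, and their difference from -2.92 to -2.51. The DEG count of receptor genes was 0 with library size only, with upper quartile scaling and with both FPKM scales, since IFNGR1 then missed the fold threshold. The receptor median was -0.28 with log2(FPKM + 0.1) and -0.23 with log2(FPKM + 1). With log2(FPKM + 1) the interferon median was -2.62, and 423 genes were lower and 55 higher by the DEG rule, since the pseudocount shrinks the change of low genes. For the related lists, whose alternatives were chosen after seeing the data, leaving out 1 library gave 7 to 10 induction genes lower and 0 to 1 higher, 2 to 3 class II receptor genes lower, and 5 to 6 signalling genes lower and 0 to 1 higher. With library size only or upper quartile scaling 1 induction gene was called higher, and with a minimum count of 50 the number of other interferon genes called lower was 0, since IFNL4 was not tested. Libraries with the same replicate number did not deviate together (correlations -0.011, -0.021 and -0.072), so the numbers were not taken as pairs. With the replicate block, 3 receptor genes were called lower, IFNAR2 being lost at -0.28 (adjusted p = 0.0614), no other member changed its call, and 1570 genes were lower and 720 higher. The counts of the interferon genes in CELF6-OE, 11 to 87 per library, limit the precision of their levels there.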
